A study of Mus musculus with 6 samples.

Results

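The transcripts described here are those of the epidermal growth factor (EGF) receptor family and of its ligands. The members are the receptor genes Egfr, Erbb2, Erbb3 and Erbb4 and the ligand genes Egf, Areg, Ereg, Hbegf, Btc and Tgfa, taken by gene symbol as 10 of the 25302 genes of the deposited table. They were measured by total RNA sequencing of biliary epithelial cells, the lining of the bile ducts, from mouse liver. The 3 Control samples have the genotype Sox9fl/fl, with both alleles of the transcription factor gene Sox9 floxed and no Cre listed. The 3 Sox9cKO samples have the genotype Sox9fl/fl:AlbCre+/-, in which the same floxed alleles meet 1 copy of a Cre transgene under the albumin promoter. That promoter is active in the fetal progenitors of both hepatocytes and biliary cells, so recombination is not limited to the bile duct. Age, sex and treatment are not given in the sources used here. Nor is it stated that each sample came from a separate animal, so p-values measure only the spread between these samples.

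The 4 receptors are membrane proteins with an intracellular tyrosine kinase domain that act in pairs, either of the same kind or of different kinds. EGFR binds EGF, amphiregulin, epiregulin, HB-EGF, betacellulin and TGF-alpha, ERBB4 binds some of these as well as neuregulins, ERBB3 binds neuregulins and has a weak kinase, and ERBB2 has no known soluble ligand and serves as the partner of the others. The ligands are made as membrane-bound precursors and released by ADAM proteases. Active receptors signal through the Ras-MAPK cascade and through PI3K and Akt. In the liver this system is known for its part in epithelial growth and regeneration.

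All values are normalized read counts (reads scaled by each sample's size factor) unless another scale is named. Total reads lay between 11883496 and 16191990 per sample in libraries numbered 1 to 3 per group by the labels. Sox9, the targeted gene, lay between 6043 and 6293 in Control and between 3165 and 3363 in Sox9cKO, a log2 fold change of -0.91 (limma, Benjamini-Hochberg adjusted p = 0.00501). The direction followed the labels in every library. Which part of Sox9 is floxed is not given in the sources used here, so the remaining reads may include transcripts that lack it. All 8 biliary markers were found, with Krt19 at 11480 to 26648 and Epcam at 5501 to 8249. The 8 summed to 94181 to 136934 in Control and 83443 to 117772 in Sox9cKO. Their fitted values were above 0 for 2 and below 0 for 6, with a median log2 fold change of -0.17. Of the 8, 1 was called higher and 0 lower (limma). Endothelial markers were not evenly spread over the libraries: the 8 genes summed to 2112 to 47857 in Control and 8054 to 49338 in Sox9cKO. The 8 hepatocyte markers summed to 21044 to 33234 in Control and 42200 to 71577 in Sox9cKO. Of 4 Schwann cell markers, a source of Erbb3 in nerves, 3 were in the table, and they summed to at most 26.1 in any library. In such bulk samples, fewer cells of a type and less RNA per cell cannot be told apart.

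Egfr was the 1 member of 10 called higher in Sox9cKO (limma, adjusted p = 0.0485), at 2.58 times the Control mean. This call held under 8 of 18 alternative settings of the analysis. Areg, at 3.21 times the Control mean, and Tgfa, at 1.32 times, were not called with limma. None of the 10 was called lower with limma, and 0 were lower at an unadjusted p under 0.05 or called lower by edgeR or DESeq2. Over all 17153 genes tested with limma (adjusted p under 0.05), 2.97% were called, 2.03% higher and 0.939% lower. In 3 members, Egfr, Areg and Tgfa, all Sox9cKO values lay above all Control values, and in none did they all lie below. The first of these patterns held for 13.4% of all tested genes and the second for 10.8%. The median log2 fold change was 0.13 over the 10 members and 0.036 over all tested genes. Hbegf, the most abundant member, differed between the group means by less than the spread within either group.

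**Figure D1:**
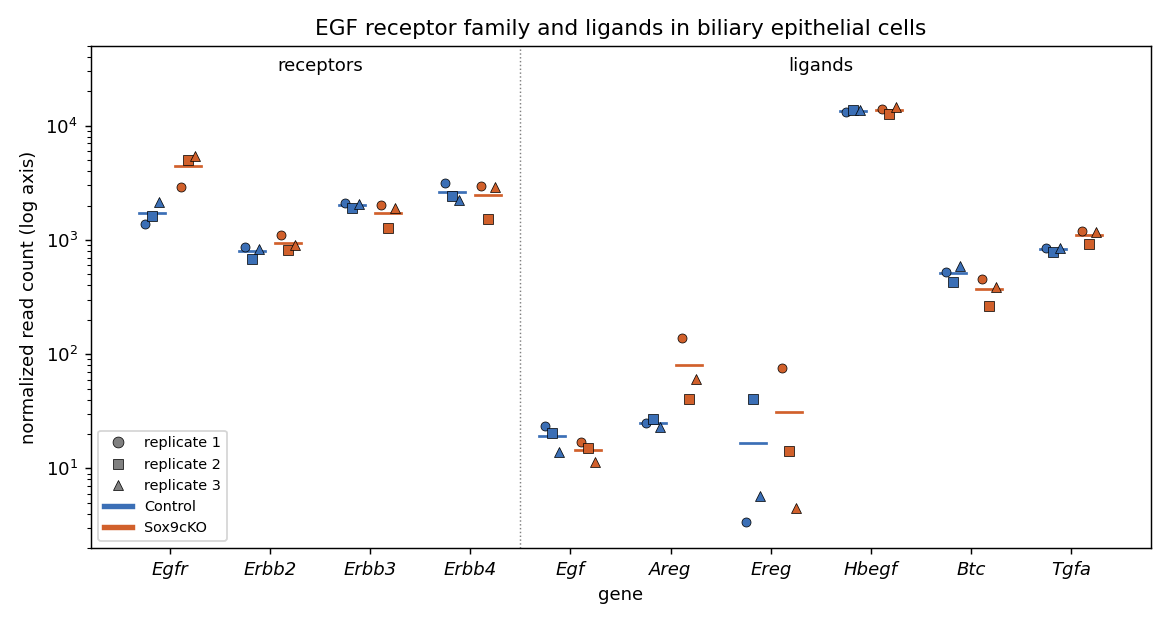
Normalized read counts (log axis) of the 4 receptors and 6 ligands in each sample, with circles, squares and triangles for replicates 1 to 3 and a bar for each group mean (blue Control, orange Sox9cKO). Egfr, Areg and Tgfa are the members whose groups do not overlap, Hbegf sits between 12692 and 14474 in all samples, and Ereg spans 3.36 to 75.6.

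Promoter sequences are shown for these 3 members because they are the ones whose groups separate. RefSeq entries in build GRCm38.p6 were found for 7 of the 10 members, and not for Erbb3, Ereg and Hbegf. Each line gives the 250 bases before the gene's start, 5′ to 3′ on the gene's strand, and capitals mark motif matches. The regions are chr11:16751953-16752202 (plus strand) for Egfr, chr5:91139349-91139598 (plus strand) for Areg and chr6:86194972-86195221 (plus strand) for Tgfa.
Egfr: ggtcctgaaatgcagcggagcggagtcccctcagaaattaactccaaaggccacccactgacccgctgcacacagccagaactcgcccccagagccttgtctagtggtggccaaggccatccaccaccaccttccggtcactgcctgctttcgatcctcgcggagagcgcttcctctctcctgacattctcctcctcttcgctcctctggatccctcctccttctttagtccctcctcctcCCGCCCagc
Areg: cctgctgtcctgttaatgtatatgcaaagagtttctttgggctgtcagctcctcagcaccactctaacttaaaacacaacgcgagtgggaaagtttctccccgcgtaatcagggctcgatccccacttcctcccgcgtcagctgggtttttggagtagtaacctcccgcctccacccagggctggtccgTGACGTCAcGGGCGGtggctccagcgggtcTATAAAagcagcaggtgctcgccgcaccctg
Tgfa: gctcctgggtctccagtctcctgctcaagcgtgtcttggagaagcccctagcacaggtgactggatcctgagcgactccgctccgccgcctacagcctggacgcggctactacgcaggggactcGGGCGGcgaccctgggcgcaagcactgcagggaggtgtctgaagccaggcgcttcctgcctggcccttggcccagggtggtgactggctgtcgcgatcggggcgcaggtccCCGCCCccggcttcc
The motifs searched on both strands were the core of SOX sites (ACAAT), the cAMP response element (TGACGTCA), the AP-1 site (TGANTCA), the GC box (GGGCGG) and the TATA box (TATAAA). The Egfr window holds a GC box that ends 4 bases before the start and none of the other motifs, and 60.8% of its bases are G or C. The Areg window holds a cAMP response element from 61 to 54 bases before the start, then a GC box and a TATA box, the latter beginning 31 bases before the start. The Tgfa window holds 2 GC boxes, and 69.2% of its bases are G or C. No matches overlapped. Among 32851 mouse promoter windows of the same length, 27.7% hold the SOX core, 1.55% the cAMP response element, 6.75% the AP-1 site, 32.7% the GC box and 12.4% the TATA box. Among the members with an entry, the SOX core was found in Erbb4 alone. These matches describe letters, not sites in use, and no binding was measured.

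Egfr (ENSMUSG00000020122), the receptor for all 6 ligands studied, had 1371, 1612 and 2159 normalized reads in Control and 2902, 4978 and 5399 in Sox9cKO, each in the order of the replicate numbers, as in all such lists of values below. Every Sox9cKO library lay above every Control library, and Sox9cKO replicate 1 was the closest to Control. Means were 1714 ± 404 and 4426 ± 1337 (SD, n = 3). This is a log2 fold change of 1.34 (standard error 0.27) with a 95% interval of 0.71 to 1.97 (limma, adjusted p = 0.0485). Between libraries of the same replicate number the ratio was 2.12, 3.09 and 2.50. What a shared number marks is not stated in the labels. In the paired fit, in which the replicate number is a block, the adjusted p was 0.00246 with limma, where 8.05% of all genes were called, and 0.00403 with edgeR, where 6.76% were. DESeq2 was run without the block and gave an adjusted p of 8.84e-05, while calling 7.08% of all genes. With limma and edgeR, Egfr sat at the threshold when there was no block. Here edgeR, which called 2.86% of all genes, gave an adjusted p of 0.0568. The limma adjusted p was 0.186, 0.106 and 0.0764 without Control replicate 1, 2 or 3. Without Sox9cKO replicate 2 or 3 it was 0.133 and 0.119. The limma call held without Sox9cKO replicate 1 (limma, adjusted p = 0.0235) and with an endothelial covariate (0.0180, log2 fold change 1.47). Egfros, an annotated antisense gene inside Egfr that shares no exon bases with it, also had higher values in each Sox9cKO library, 10.6 ± 1.22 against 26.0 ± 6.80 (SD, n = 3). Its log2 fold change was 1.19 (limma, adjusted p = 0.121), and whether counting used the strand is not stated. Hepatocytes also express Egfr. Of the 8 hepatocyte markers, 7 had a fitted value above 0 and 1 (Ttr) below, with a median log2 fold change of 0.64. Of these, 3 rose (limma; Apob, Serpina1b and Fgb, with log2 fold changes of 2.97, 5.55 and 3.62), and the groups overlapped for the other 5 (Alb, Ttr, Apoa1, Cyp2e1 and Cps1). The summed levels of the mesothelial markers and of the leukocyte and erythroid markers were also higher in each Sox9cKO library than in any Control library. Mesothelial markers summed to 381 to 488 in Control and 911 to 1859 in Sox9cKO. Of the 4, 1 was called higher (Msln, log2 fold change 2.01, limma adjusted p = 0.0159). Upk3b was lower in all Sox9cKO libraries (-0.82, limma adjusted p = 0.110). Leukocyte and erythroid markers summed to 1040 to 1109 and 1503 to 1825, and 1 of 6 tested rose (Csf1r, 0.92, limma adjusted p = 0.0142), while the other 5 had fitted values below 0. Fibroblast and stellate markers overlapped (2142 to 2763 and 2272 to 4668). The part of such transcripts in the Egfr result was not tested.

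The other 3 receptors had overlapping groups. Erbb2 (ENSMUSG00000062312), the partner receptor, had 870, 687 and 831 in Control and 1110, 824 and 895 in Sox9cKO. It had a log2 fold change of 0.24 with a 95% interval of -0.13 to 0.61 (limma, adjusted p = 0.489). Sox9cKO replicates 1 and 3 lay above the Control range and replicate 2 within it. Erbb3 (ENSMUSG00000018166), a neuregulin receptor, had 2091, 1890 and 2046 in Control and 2039, 1264 and 1902 in Sox9cKO. Its log2 fold change was -0.24 with an interval of -0.68 to 0.20 (limma, adjusted p = 0.570), and the low mean of Sox9cKO came from replicate 2. Erbb4 (ENSMUSG00000062209), a receptor for neuregulins and for some EGF-like ligands, had 3133, 2425 and 2262 in Control and 2986, 1520 and 2934 in Sox9cKO. The fitted log2 fold change was -0.12 with an interval of -0.77 to 0.53 (limma, adjusted p = 0.866), and without Sox9cKO replicate 2 it was 0.20. None of these 3 intervals reaches the estimate for Egfr, 1.34.

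**Figure D2:**
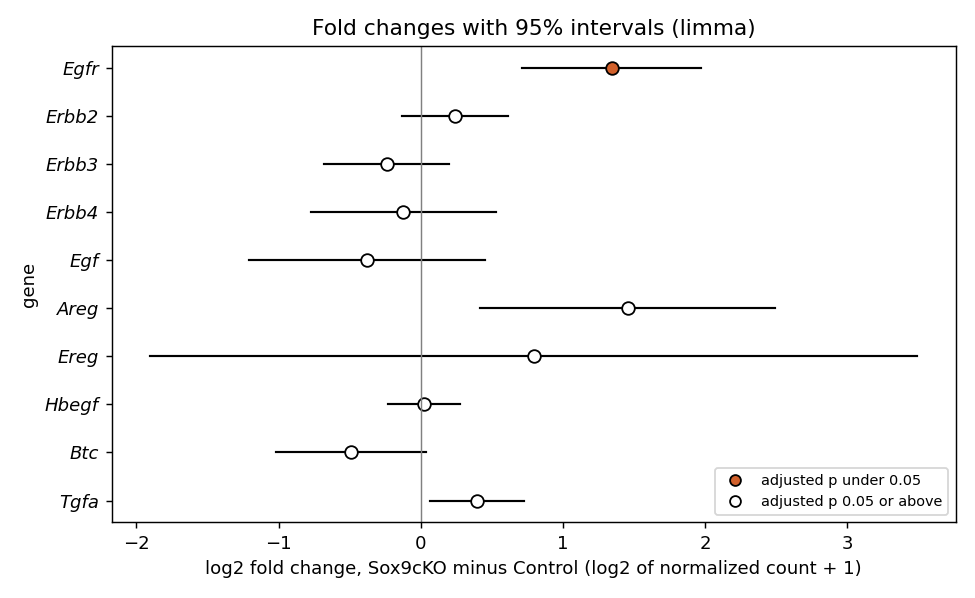
Log2 fold change of each member, Sox9cKO minus Control, on the scale of log2(normalized count + 1), with lines for the 95% interval from limma and a filled point where the adjusted p was under 0.05. Egfr is the filled point at 1.34, Areg lies higher at 1.46 with a wider interval, and the interval of Ereg runs from -1.90 to 3.49.

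The makeup of the receptor transcripts differed between the libraries. Divided by exon length, Egfr made up 13.6%, 18.1% and 21.8% of the summed level of the 4 receptors in Control replicates 1 to 3. In Sox9cKO it made up 24.4%, 47.2% and 39.7%. The share of Erbb3 was 39.1%, 40.0% and 38.9% in Control and 32.3%, 22.6% and 26.3% in Sox9cKO. Erbb3 was thus the leading receptor transcript in every Control library and in Sox9cKO replicate 1, and Egfr in Sox9cKO replicates 2 and 3. Erbb2 and Erbb4 had overlapping shares in the groups, with means of 17.9% ± 1.02 and 17.2% ± 3.01 for Erbb2 and of 24.8% ± 3.78 and 18.7% ± 4.99 for Erbb4 in Control and Sox9cKO (SD, n = 3). Shares within a sum move together by construction, so a lower Erbb3 share is not a lower Erbb3 level.

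**Figure D3:**
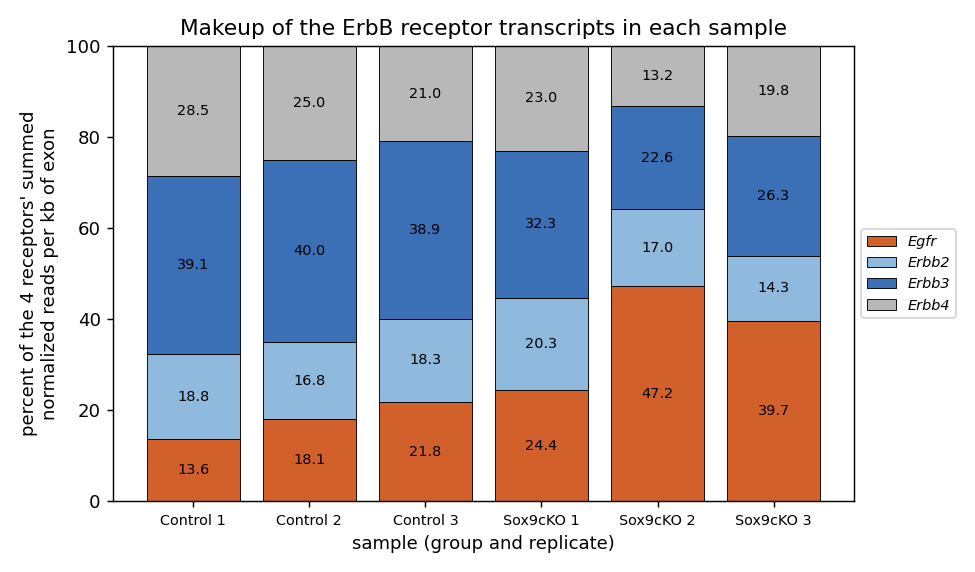
Share of each receptor in the summed normalized reads per kb of exon of the 4 receptors, in percent, 1 bar per sample. Egfr (orange) takes 13.6% to 21.8% in the Control bars and 24.4% to 47.2% in the Sox9cKO bars.

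Of the ligands, Hbegf (ENSMUSG00000024486), which encodes HB-EGF, a heparin-binding ligand of EGFR and ERBB4, was by far the most abundant. It had 13150, 13680 and 13670 normalized reads in Control and 14005, 12692 and 14474 in Sox9cKO. The groups overlapped, with means of 13500 ± 303 and 13724 ± 924 (SD, n = 3). The log2 fold change was 0.022 with a 95% interval of -0.23 to 0.27 (limma, adjusted p = 0.947), so a change of the size seen for Egfr lay outside the interval. By exon length, Hbegf held 91.3% ± 0.547 of the summed ligand level in Control and 89.8% ± 2.24 in Sox9cKO (SD, n = 3).

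Tgfa (ENSMUSG00000029999), the gene of TGF-alpha, an EGFR ligand of many epithelia, had 852, 785 and 846 in Control and 1208, 914 and 1168 in Sox9cKO. The groups did not overlap, though Sox9cKO replicate 2 came near to Control. Its log2 fold change of 0.40 had a standard error of 0.14 and an interval of 0.068 to 0.72 (limma, unadjusted p = 0.0242, adjusted p = 0.200). This did not pass the threshold. An unadjusted p under 0.05 was found for 17.8% of all tested genes, and for 3 members, Egfr, Areg and Tgfa.

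Areg (ENSMUSG00000029378), the gene of amphiregulin, an EGFR ligand known as a YAP target and an injury signal in epithelia, had 25.2, 26.9 and 23.0 in Control and 139, 40.6 and 61.1 in Sox9cKO. Control values were close together, while the Sox9cKO values spread more than 3-fold and all lay higher. Means were 25.1 ± 1.94 and 80.4 ± 52.1 (SD, n = 3), and the log2 fold change of 1.46 had a standard error of 0.44 and an interval of 0.42 to 2.49 (limma, adjusted p = 0.147). It did not pass the threshold with limma or edgeR (adjusted p = 0.130), nor in the paired fit with limma (0.0647). DESeq2 alone called it (adjusted p = 0.0246), while calling 7.08% of all genes.

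Btc (ENSMUSG00000082361), which encodes betacellulin, a ligand of EGFR and ERBB4, had 524, 429 and 586 in Control and 453, 267 and 391 in Sox9cKO. The highest Sox9cKO library lay above the lowest Control library. Its log2 fold change was -0.49 with an interval of -1.02 to 0.035 (limma, adjusted p = 0.313). It was the member with the lowest fitted value, and each Sox9cKO library was below the Control library of its number, with ratios of 0.864, 0.622 and 0.666.

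Ereg and Egf were rare. Ereg (ENSMUSG00000029377), the gene of epiregulin, had 3.36, 40.8 and 5.76 in Control and 75.6, 14.2 and 4.53 in Sox9cKO. The spread within each group covered most of the whole range, and the high libraries were Control replicate 2 and Sox9cKO replicate 1. The lowest of these values rested on 4 reads. The log2 fold change of 0.79 had an interval of -1.90 to 3.49 (limma, adjusted p = 0.775) and turned to -0.23 without Sox9cKO replicate 1, so no direction was measurable. Egf (ENSMUSG00000028017), the gene of EGF itself, had 23.5, 20.4 and 13.8 in Control and 16.9, 15.1 and 11.3 in Sox9cKO, from 10 to 28 reads per library. Its groups overlapped, and the log2 fold change was -0.38 with an interval of -1.21 to 0.45 (limma, adjusted p = 0.642). An antisense gene, 6330410L21Rik, shares 500 exon bases with Egf and had at most 5.76 normalized reads.

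Levels of different genes were compared per kb of annotated exon (GENCODE M21). In Control the order was Hbegf at 2793 ± 62.7 normalized reads per kb (SD, n = 3), Erbb3 at 334 ± 17.6, Erbb4 at 211 ± 37.5, Erbb2 at 153 ± 18.5, Egfr at 151 ± 35.7, Tgfa at 128 ± 5.70, Btc at 113 ± 17.6, Areg at 20.6 ± 1.60, Ereg at 4.03 ± 5.08 and Egf at 1.71 ± 0.440. The ranges of neighbours overlapped from Erbb2 through Btc and between Ereg and Egf, and not elsewhere. In Sox9cKO, Egfr came second with 391 ± 118, ahead of Erbb3 at 288 ± 68.7, Erbb4 at 201 ± 67.3, Erbb2 at 181 ± 28.6 and Tgfa at 169 ± 24.6, a run in which each neighbour's range overlapped the next. With the length of the longest transcript in place of all exons, Tgfa moved up to the fourth place in both groups and Hbegf stayed first. Among all tested genes with a known length, the mean level per kb put Hbegf at the percentile 99.5, Erbb3 at 90.7, Egfr at 88.7, Tgfa at 77.8, Areg at 47.7 and Egf at 0.494.

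The libraries also differed across members. Sox9cKO replicate 2 held the lowest Sox9cKO value for 7 of the 10 members, among them Erbb3, Erbb4, Btc and Tgfa, and the highest for none. Control replicate 2 held the lowest Control value for 4, namely Erbb2, Erbb3, Btc and Tgfa. These libraries had the highest endothelial sums, 49338 and 47857, and the lowest values of the epithelial gene Epcam in their groups, 5501 and 6559. Sox9cKO replicate 1 had the highest Sox9cKO values for 8 members, with an endothelial sum of 37073, and the lowest for Egfr. Control replicate 3, with the lowest endothelial sum (2112), held the highest Control value for 2 members and the lowest for 3. The cause of these differences between libraries was not tested. With the endothelial covariate, which was added after the data had been seen, Egfr was again the 1 member called. Btc then had a log2 fold change of -0.40 and Erbb3 of -0.19 (limma, adjusted p = 0.355 and 0.641).

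The remaining genes of the pathway were read from 6 lists by role. Of 63 tested genes, 2 were called higher (Nrg1 and Dusp4) and 2 lower (Etv4 and Etv5) with limma, against 2.97% called among all genes. Their median log2 fold change was 0.083. In the paired fit 8 were called with limma, where the background was 8.05%. Genes called there but not in the limma fit without the block, chosen for naming after their values were seen, included Adam10 (log2 fold change 0.52, limma adjusted p = 0.0244 with the block and 0.0631 without), Egr1 (-0.79, 0.0312 and 0.0725) and Spry4 (0.63, 0.0471 and 0.224).

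Among the other ErbB ligands, Nrg1, the gene of neuregulin 1, a ligand of ERBB3 and ERBB4, had 292, 349 and 427 in Control and 640, 989 and 969 in Sox9cKO. All Sox9cKO libraries were higher, and the log2 fold change of 1.27 had a standard error of 0.22 (limma, adjusted p = 0.0297). The call was lost without Control replicate 1, 2 or 3 (limma, adjusted p = 0.126, 0.0708 and 0.0554) and without Sox9cKO replicate 2 or 3 (0.0920 and 0.0918), as well as with quantile normalization (0.0512) and no intensity trend (0.0657). It held with edgeR (adjusted p = 0.0381), in the paired fit with limma (0.00289) and edgeR (0.00458), and with DESeq2 (2.98e-05). Nrg2 and Nrg4 stayed under the mean of 10 needed for a test, with at most 12.9 normalized reads. Epgn and Nrg3 were listed as well but had no entry under these symbols among the deposited genes.

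No gene passed the threshold with limma in 4 of the lists, which held 45 tested genes. At an unadjusted p under 0.05 there were 9 of the 45, where the share over all tested genes was 17.8%. With edgeR 0 of them were called, against 2.86% of all genes, and with DESeq2 1 (Adam10), against 7.08%. The 7 ligand shedding genes (ADAM proteases and rhomboid proteins) had a median log2 fold change of 0.32, with 6 above 0 and 4 whose groups did not overlap, all higher. The 16 genes of adaptors and the Ras-MAPK cascade had a median of -0.012, with 1 higher and 3 lower without overlap. The 10 listed for the PI3K-Akt branch had a median of 0.021, with 1 higher and 1 lower without overlap. These 10 include Pdk1, which encodes a pyruvate dehydrogenase kinase outside that branch (log2 fold change -0.26, limma adjusted p = 0.568). The 12 genes that restrain or remove the receptors had a median of 0.11, with 4 higher and 3 lower without overlap. Over all tested genes 24.2% had groups that did not overlap, 13.4% higher in Sox9cKO and 10.8% lower.

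Among the 17 genes known to respond to EGF and MAPK signalling, 1 was called higher and 2 lower (limma), with a median of 0.10. An unadjusted p under 0.05 with limma was found for 8 of them, against 17.8% of all tested genes. Groups did not overlap for 2 higher and 5 lower genes, against 13.4% and 10.8% of all tested genes. DESeq2 called 5 (Dusp4, Etv4, Etv5, Egr1 and Fos), where it called 7.08% of all genes. Egr1 and Fos, named after their values were seen, were lower (adjusted p = 0.000547 and 0.0112 with DESeq2, 0.0725 and 0.133 with limma). Dusp4, a phosphatase that inactivates MAP kinases, had 943, 1081 and 974 in Control and 3031, 2073 and 2453 in Sox9cKO, a log2 fold change of 1.32 (standard error 0.16; limma, adjusted p = 0.00715). It was called under all 18 alternatives run. Etv5, an ETS transcription factor gene induced by MAPK signalling, had 554, 492 and 578 in Control and 238, 187 and 245 in Sox9cKO. This gave a log2 fold change of -1.28 (standard error 0.16; limma, adjusted p = 0.00761, and 0.0507 without Control replicate 1). Etv4, a close relative of Etv5, had 43.7, 69.6 and 39.2 in Control and 4.97, 6.62 and 10.2 in Sox9cKO. This gave a log2 fold change of -2.65 (standard error 0.39; limma, adjusted p = 0.0151). The adjusted p was 0.0762, 0.0528 and 0.0540 without Control replicate 1, 2 or 3 and 0.0501 without Sox9cKO replicate 2. Both genes were also called in the paired fit (limma, adjusted p = 0.00269 for Etv5 and 0.0110 for Etv4). The genes called in this list thus moved in both directions.

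**Figure D4:**
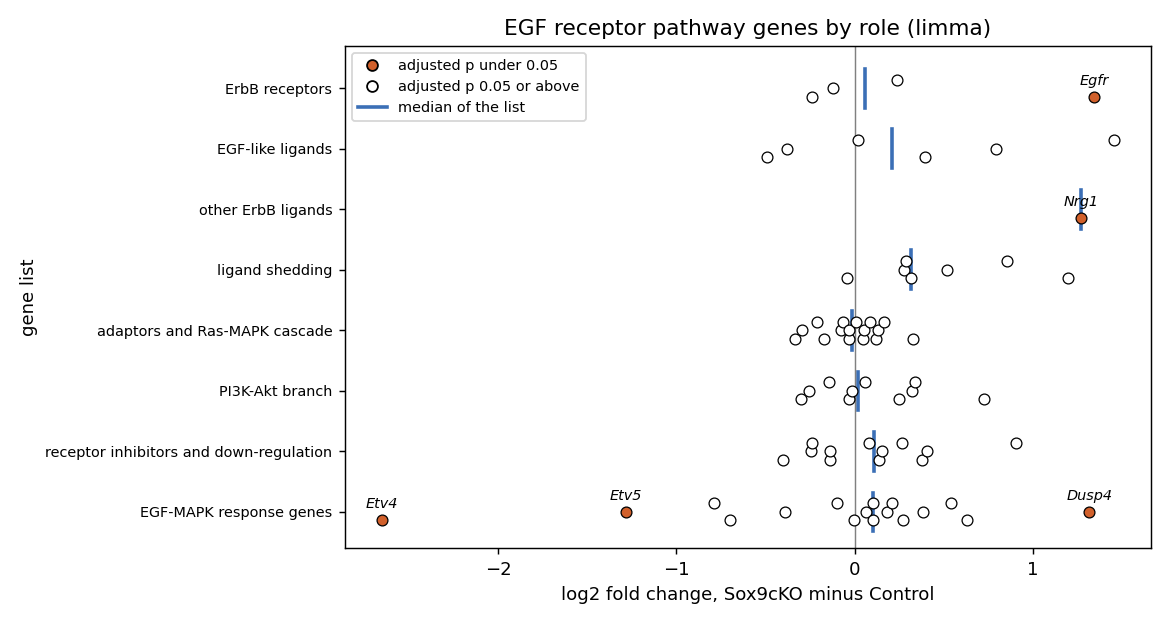
Log2 fold change (Sox9cKO minus Control, limma) of each tested gene in the 2 member lists and the 6 pathway lists, with filled, named points where the adjusted p was under 0.05 and a blue bar for the median of each list. The called genes are Egfr, Nrg1 and Dusp4 on the right and Etv5 and Etv4 on the left.

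The pattern of Egfr over the 6 samples was compared with that of 13569 other tested genes. Tested genes with provisional symbols (such as Gm numbers or Rik names) and repeated entries of a symbol were left out. The measure was the root mean square difference of log2 values after each gene's mean was subtracted. Nrg1 came closest, at 0.10, followed by Igfals, the gene of a plasma carrier subunit for insulin-like growth factors, at 0.13 and Dst, the gene of the cytoskeletal linker dystonin, also at 0.13. In all 4 genes Sox9cKO replicate 1 was the lowest Sox9cKO library and Control replicate 1 the lowest Control library. The Sox9cKO mean was 2.43 times the Control mean for Nrg1, 3.00 times for Igfals and 2.49 times for Dst. With 6 samples, close patterns are easily found among this many genes.

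**Figure D5:**
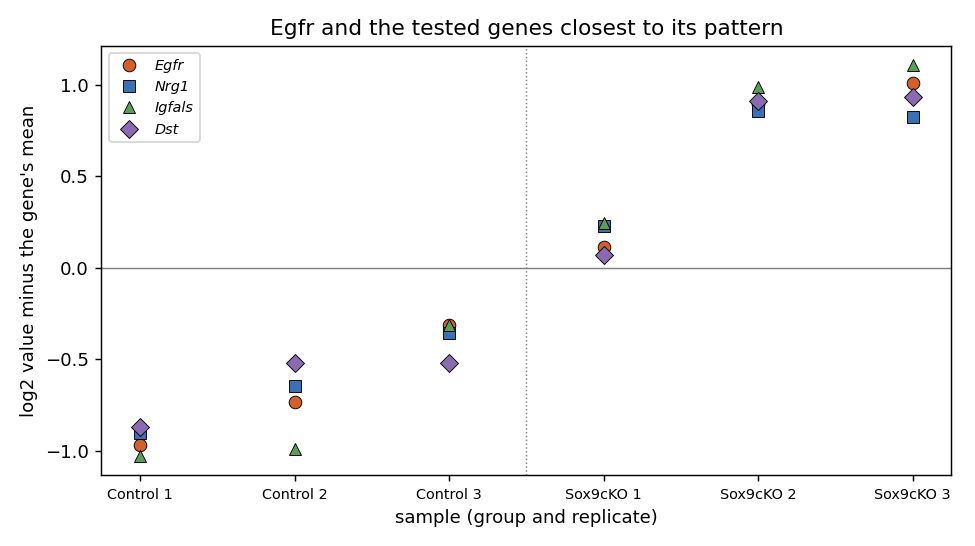
Log2 values of Egfr, Nrg1, Igfals and Dst in each sample after subtraction of the gene's mean over the 6 samples, with 1 symbol per gene. The symbols stay close together in each sample, with Sox9cKO replicates 2 and 3 highest.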

How the data were processed

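The table that the authors deposited holds a signal, which its values show to be gene counts divided by 1 size factor per sample: 100% were whole multiples of the sample's step (tolerance 0.001 reads). DESeq2 1.36.0 and GRCm39 are named, without a role, in the submitters' processing notes. Per the labels' protocols, libraries were stranded, with molecular identifiers, after depletion of ribosomal RNA. The aligner, the counter and the use of the identifiers are not given in the sources used here.

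Values were transformed as log2(value + 1), and limma 3.58.1 (R 4.3.3) was run on genes with a mean of at least 10 (intensity trend, two-sided, Benjamini-Hochberg over all tested genes, threshold 0.05). Fold changes of rare genes are understated on this scale. Alternatives included edgeR 4.0.16 and DESeq2 1.42.0 on the recovered reads. The scripts were tested on simulated data. The labels do not say what a shared replicate number marks, so the reported fit had no block. Same-numbered samples deviated together (correlations across genes of 0.207, 0.472 and 0.542). Correlations between differently numbered samples are not reported here, so these values do not establish pairs. A fit with that number as a block, called the paired fit here, was run as an alternative. Members and lists were chosen with earlier results of these data known. Named genes were the members, Sox9, at most 3 called genes per pathway list by p, and the 3 genes closest in pattern to a called member. Not every pathway gene is reported here by name. Exon lengths came from GENCODE M21 (GRCm38), with a match for 99.2% of tested genes.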

Additional observations from a re-analysis of the deposited data

How the results depend on the processing

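The log2 fold change of Sox9 stayed negative and called under all 18 alternatives, from -0.9997 to -0.88. Egfr kept its direction under all 18 (log2 fold change 1.17 to 1.62) but was called under 8, with adjusted p up to 0.186. The number of members called, 1 in the reported fit, was 0 with a pseudocount of 0.1, a minimum mean of 50, quantile normalization, no intensity trend and edgeR (limma or edgeR adjusted p of Egfr 0.0507, 0.0507, 0.0510, 0.0945 and 0.0568), 2 with DESeq2 (Egfr and Areg), and 0 to 1 when 1 sample was left out. Of the 10 members, 3 had an unadjusted p under 0.05 with limma. The number of pathway genes called, 4 in the reported fit, was 8 with the replicate block, 7 with DESeq2 and 1 to 4 when 1 sample was left out. Over all genes, 510 calls became 1381 with the replicate block, 1160 with edgeR and the replicate block, 1214 with DESeq2 and 199 to 387 when 1 sample was left out. The replicate block changed no call of a member with limma, while with edgeR it turned the count from 0 to 1, Egfr (edgeR adjusted p = 0.0568 without the block and 0.00403 with it). Signs turned for Hbegf with quantile normalization (-0.016), edgeR (-0.021), edgeR with the replicate block (-0.023), DESeq2 (-0.015) and without Sox9cKO replicate 3 (-0.018). They also turned for Erbb4 without Control replicate 1 (0.017) or Sox9cKO replicate 2 (0.198), and for Ereg without Sox9cKO replicate 1 (-0.228). With 1 sample left out, the ranges were -0.018 to 0.077 for Hbegf, -0.289 to 0.198 for Erbb4 and -0.228 to 1.78 for Ereg. None of these was called, and the cause was not tested. Egf, Ereg and Etv4 have no value at a minimum mean of 50. The few reads of Egf and Ereg limit what can be measured for them.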
